A study of Danio rerio with 15 samples.

Results

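The 7 genes mt-nd1, mt-nd2, mt-nd3, mt-nd4l, mt-nd4, mt-nd5 and mt-nd6 encode the mitochondrially made subunits of respiratory complex I. They were taken by Ensembl ID, in this order ENSDARG00000063895, ENSDARG00000063899, ENSDARG00000063914, ENSDARG00000063916, ENSDARG00000063917, ENSDARG00000063921 and ENSDARG00000063922, and are 7 of the 32520 genes in the table. All 7 passed the filter on low counts. RNA sequencing was done on pools of 10 zebrafish embryos at 50% epiboly, early in gastrulation, in 5 groups of 3 samples. The mutant groups were axin2-/- embryos, made with Cas9 in the TL strain, nkd1-/- embryos, made with Cas9 in the Tu strain, and axin2-/-;nkd1-/- embryos from crossing those lines, called the double mutant here. The unmutated TL and Tu strains were their controls. Both proteins restrain Wnt signalling and are induced by it, and the series set single against double loss of them.

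Complex I, the NADH:ubiquinone oxidoreductase, takes electrons from NADH, passes them to ubiquinone and pumps protons across the inner mitochondrial membrane. Its membrane arm is built around the ND subunits, which are translated inside the mitochondrion, while its other subunits and its assembly factors are encoded in the nucleus and imported. In vertebrates the ND genes lie on the compact circular mitochondrial genome, which is transcribed from both strands into long precursors that are then cut into messages. The embryo receives its mitochondria from the egg.

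The replicates within a group shared parents and differed in the day of collection, so each p-value measures the spread between collections of a family, and family and genotype cannot be told apart. In pools of whole embryos, fewer cells of a type and less RNA per cell cannot be told apart either. Libraries held 44098543 to 68135442 counts, of which the 7 genes took 0.189% to 0.513% and all 13 mitochondrial mRNAs 1.40% to 2.73%. A member had at least 3068 counts in a sample and at most 78442, for a counting error of 1.81% at the low end and 0.357% at the high end, well under the spread between replicates. Markers of the gastrula were present (10 of 10 germ layer genes with an ID were detected), and 6 genes of later tissues summed to 0.524 to 3.23 CPM, the count scaled to a library total of 1000000. The axin2 transcript was at 95.0 ± 8.39 CPM in axin2-/- embryos, against 69.3 ± 5.80 CPM in TL embryos, and nkd1 was at 21.4 ± 2.77 CPM in nkd1-/- embryos, against 12.3 ± 0.852 CPM in Tu embryos (SD, n = 3 each). The position of the lesions was not used here, so these gene counts do not check the genotype labels.

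The double mutant had the lowest mean CPM of the 5 groups for each of the 7 genes, and TL had the highest for all but mt-nd2, which was highest in Tu. In these orders, groups next to each other overlapped sample by sample in every case except mt-nd6 between axin2-/- and Tu. The lowest place of the double mutant turned in part on its replicate 2. Without that library its log2 fold change against axin2-/- embryos was above 0 for mt-nd5 (0.10) and mt-nd6 (0.06). It was below 0 for the others in that comparison, which covers axin2-/- embryos only. For mt-nd4l, double mutant replicates 1 and 3 (143.6 and 122.4 CPM) were both above the Tu mean of 122.0 CPM. Without nkd1-/- replicate 2, the log2 fold change of the double mutant against nkd1-/- embryos was above 0 for mt-nd3 (0.12). CPM was taken on the total count of each library. It is not corrected for transcript length, so a gene is compared with itself across groups and not with the other genes. Tests used library sizes scaled by the TMM method. A called gene is one with an adjusted p under 0.05 over the 21614 genes tested.

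The genes mt-nd2, mt-nd4 and mt-nd5 encode the large proton-pumping subunits of the membrane arm, which resemble bacterial antiporters. For mt-nd2 the samples held 778, 657 and 628 CPM in axin2-/- embryos, 607, 1032 and 621 CPM in nkd1-/- embryos and 643, 340.2 and 533 CPM in the double mutant. The strains held 1105, 959 and 817 CPM in TL embryos and 915, 1002 and 1206 CPM in Tu embryos. Every axin2-/- and double mutant sample was below all 6 strain samples, and nkd1-/- replicate 2 was above 4 of them.

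For mt-nd4 the values were 1268, 1029.7 and 998 CPM in axin2-/- embryos, 892, 1286 and 824 CPM in nkd1-/- embryos and 991, 515 and 827 CPM in the double mutant. TL embryos had 1458, 1138 and 998 CPM and Tu embryos 908, 1062 and 1191 CPM. Each mutant group overlapped its strain. The count of mt-nd5 was equivalent to 765, 646 and 638 CPM in axin2-/- embryos, 696, 1099.6 and 753 CPM in nkd1-/- embryos and 789, 413 and 642 CPM in the double mutant. It was 1045, 1004 and 734 CPM in TL embryos and 687, 899 and 716 CPM in Tu embryos, so that here too each mutant group overlapped a strain.

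The subunits encoded by mt-nd1 and mt-nd3 lie, as known from mammals, where the membrane arm meets the arm that reduces ubiquinone. For mt-nd1 the samples held 638, 542 and 491 CPM in axin2-/- embryos, 445, 725 and 462 CPM in nkd1-/- embryos and 526, 312 and 463 CPM in the double mutant. The strains held 745, 803 and 594 CPM in TL embryos and 586, 663 and 752 CPM in Tu embryos. All 3 double mutant samples were below all 6 strain samples, while each of the other mutant groups overlapped its strain. For mt-nd3 the values were 176, 142 and 131 CPM in axin2-/- embryos, 115, 156 and 77.4 CPM in nkd1-/- embryos and 119, 77.8 and 102 CPM in the double mutant. TL embryos had 180.2, 141 and 141 CPM and Tu embryos 126, 131 and 115 CPM. TL did not overlap Tu, and the double mutant did not overlap axin2-/- embryos but reached into the Tu range.

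The genes mt-nd4l and mt-nd6 encode small membrane subunits. In vertebrates mt-nd4l is read from a shared message with mt-nd4, whose start overlaps its end, and mt-nd6 lies on the opposite strand from the other 6. Use of strand in counting is not given in the sources used here, so reads from mt-nd6 and antisense reads from that place cannot be told apart. For mt-nd4l the samples held 188, 150.1 and 143 CPM in axin2-/- embryos, 118, 199 and 119 CPM in nkd1-/- embryos and 144, 69.6 and 122 CPM in the double mutant. The strains held 239.6, 172 and 126 CPM in TL embryos and 114, 133 and 119 CPM in Tu embryos. Every mutant group overlapped its strain, and TL had the largest SD, with a mean of 179 ± 57.2 CPM (SD, n = 3). Relative to the mean, the SD was 31.9% in TL, 32.1% in nkd1-/- embryos and 34.1% in the double mutant.

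For mt-nd6 the values were 267, 253 and 250.1 CPM in axin2-/- embryos, 295, 390.0 and 302 CPM in nkd1-/- embryos and 274, 162 and 250.0 CPM in the double mutant. TL embryos had 354, 362 and 328 CPM and Tu embryos 289, 323 and 361 CPM. All axin2-/- and all double mutant samples were below all 6 strain samples, and the nkd1-/- samples overlapped them, with replicate 2 above all 6. The axin2-/- samples were the tightest of any group, at 257 ± 9.28 CPM (SD, n = 3).

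**Figure D1:**
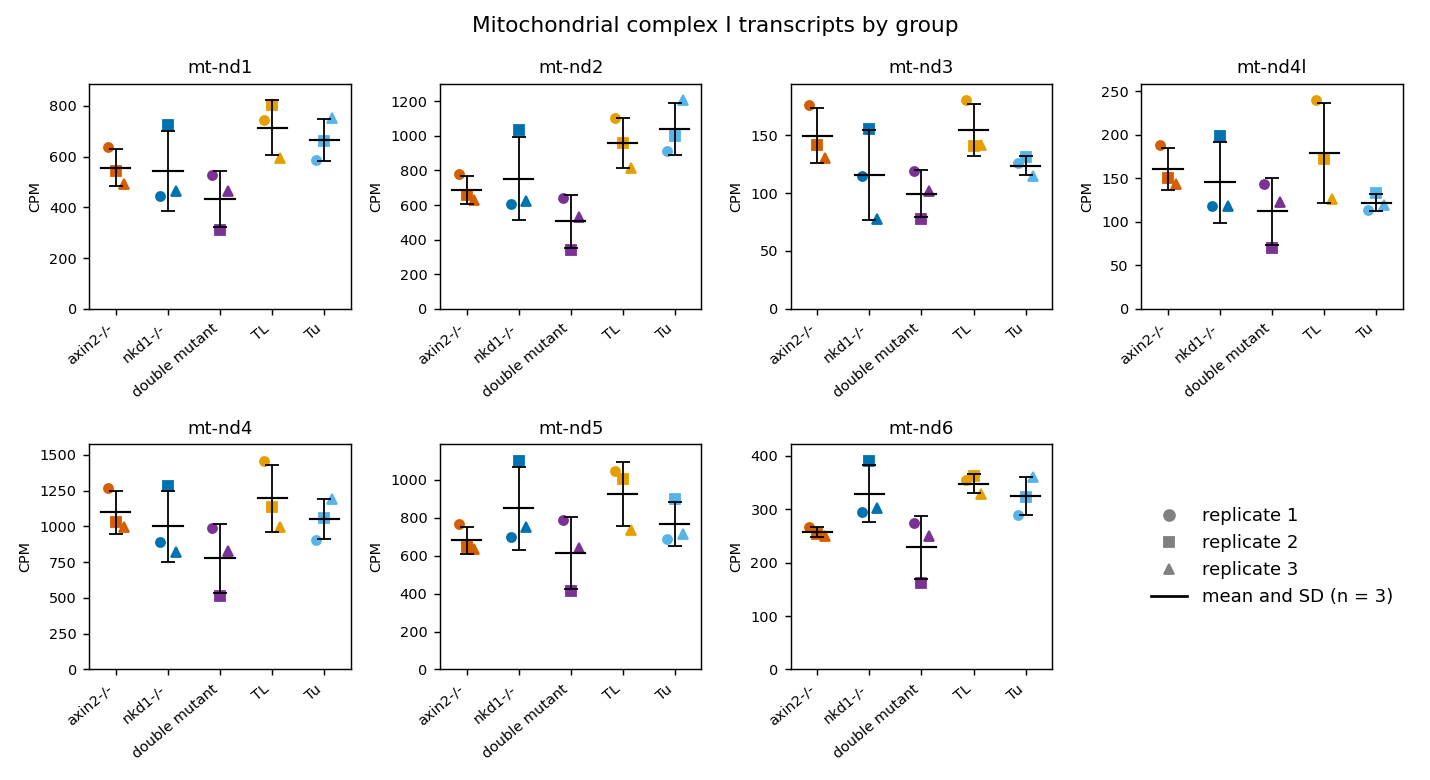
CPM of the 7 complex I transcripts (vertical axes, linear from 0, one panel a gene) in the 5 groups, with a point for each sample, shaped by replicate number, and black bars for the mean and SD of 3 samples. The double mutant has the lowest mean in every panel, nkd1-/- replicate 2 is above the other nkd1-/- samples and double mutant replicate 2 below the other double mutant samples in every panel.

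In most libraries the 7 transcripts deviated from their group mean together. In nkd1-/- replicate 2 all 7 were above their group mean, by 0.35 to 0.60 on the log2 CPM scale. In double mutant replicate 2 none was above it, with deviations of -0.63 to -0.34. All 7 were also above their group mean in axin2-/- replicate 1 and double mutant replicates 1 and 3. None was in axin2-/- replicate 3, nkd1-/- replicates 1 and 3, TL replicate 3 and Tu replicate 1. The median deviation in these ran from -0.33 to 0.39, beside 0.55 in nkd1-/- replicate 2 and -0.53 in double mutant replicate 2. The remaining libraries were mixed, such as Tu replicate 2 with 4 of 7 above the mean, and Tu replicate 3 and TL replicate 2 with 5 of 7 each. Over all 15 samples the correlation of log2 CPM between pairs of the genes ran from 0.54 to 0.96 with a median of 0.85 over 21 pairs, a description of samples that share library depth and the group differences themselves. Because nkd1-/- replicate 2 and double mutant replicate 2 had the largest median deviations, each tested comparison of the 7 genes that they enter is also given without them. Tests of single genes other than the 7 are given with all samples only.

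Relative to both strains averaged, the double mutant was lower for mt-nd2, at 0.517 of the strain level (log2 fold change -0.95 ± 0.21 SE, adjusted p = 0.00183 by edgeR's quasi-likelihood test with Benjamini-Hochberg adjustment). By the same edgeR test mt-nd1 was at 0.642 of the strain level (-0.64 ± 0.19, adjusted p = 0.0141) and mt-nd6 at 0.696 of it (-0.52 ± 0.15, adjusted p = 0.0117). The double mutant samples of these 3 genes were below all 6 strain samples, as were those of 13.5% of all genes tested. With TMM-scaled CPM mt-nd3 joined them, making 4. The share of all genes on that scale is not given here, so the 4 has no baseline.

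The other 4 genes lay in the same direction without passing the test. The log2 fold changes were -0.44 ± 0.19 for mt-nd3, -0.36 ± 0.23 for mt-nd4l, -0.50 ± 0.20 for mt-nd4 and -0.42 ± 0.19 for mt-nd5, with adjusted p-values by edgeR of 0.0732, 0.229, 0.0539 and 0.0937. In all, 3 of 7 were called, each lower, in a comparison in which 37.4% of all genes were called and 17.7% were called lower. The median log2 fold change of the 7 was -0.50, beside 0.03 over all genes. Set against TL alone, 4 were called by edgeR, with mt-nd3 added (-0.57, adjusted p = 0.0438). Set against Tu alone, the same 3 were called, with mt-nd3 at -0.30 (adjusted p = 0.280). The share of all genes called against each strain alone is not given here, so these counts have no baseline. The strains differed most for mt-nd4l, at -0.61 against TL and -0.11 against Tu, called in neither. DESeq2 called 4 of 7, adding mt-nd4, and called 8681 of all genes.

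Much of the count of called members turned on single libraries of the double mutant. Without double mutant replicate 2 only mt-nd2 was called (log2 fold change -0.73, adjusted p = 0.0153 by edgeR), while mt-nd1 was at -0.45 (adjusted p = 0.0997) and mt-nd6 at -0.33 (adjusted p = 0.0861). In that fit 6111 of all genes were called. Without double mutant replicate 1 the count of members was 6, all but mt-nd4l. Without TL replicate 3 or Tu replicate 1 it was 4, with mt-nd4 added. For the fits without double mutant replicate 1, TL replicate 3 or Tu replicate 1, the number of all genes called is not given here. Their counts of members therefore have no baseline. A requirement of at least 1 on the absolute log2 scale left 0 of 7. Across the other 19 alternatives run, mt-nd2 was called in each, with a log2 fold change of -1.16 to -0.73 and an adjusted p by edgeR or DESeq2 of 6.33e-05 to 0.0153.

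Summed markers of the extraembryonic layers were also higher in the double mutant samples than in the strain samples. The 6 enveloping layer genes, mostly keratins of the embryo's outer covering, summed to 9804 to 10403 CPM in the double mutant, 7253 to 8782 CPM in TL and 8509 to 9465 CPM in Tu. The 5 yolk syncytial layer genes, of which apoa4b.1 was near 0 with at most 7 counts in a sample, summed to 701 to 745 CPM in the double mutant, 583 to 623 CPM in TL and 588 to 624 CPM in Tu. The same sums differed in part in the single mutants. The yolk syncytial layer genes summed to 669 to 728 CPM in axin2-/- embryos, above all TL samples, and to 608 to 798 CPM in nkd1-/- embryos, which overlapped Tu. The enveloping layer genes summed to 7631 to 9153 CPM in axin2-/- embryos, which overlapped TL, and to 9539 to 12315 CPM in nkd1-/- embryos, above all Tu samples. The 10 germ layer genes summed to 3006 to 3187 CPM in the double mutant, 2831 to 3116 CPM in TL and 2543 to 2720 CPM in Tu. Their sum was 2714 to 2880 CPM in axin2-/- embryos, which overlapped TL. In nkd1-/- embryos it was 3167 to 3204 CPM, above all Tu samples. The part of the cells marked by these lists in the complex I values of any mutant was not tested.

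In axin2-/- embryos all 7 genes were on the lower side of TL, and none was called. The log2 fold changes ran from -0.45 ± 0.23 for mt-nd2 to -0.02 ± 0.21 for mt-nd3, with a median of -0.33, beside 0.01 over all genes. Without TL replicate 1, mt-nd3, mt-nd4l and mt-nd4 were above 0, at 0.077, 0.10 and 0.035. With all samples, the nearest to the threshold was mt-nd6, at -0.41 ± 0.17 (adjusted p = 0.0977 by edgeR's quasi-likelihood test). The count was 0 of 7 by edgeR and by DESeq2 and 1 of 7 at an unadjusted p under 0.05, in a comparison that called 21.2% of all genes. A fit on the axin2-/- and TL samples alone called 3, mt-nd2 (log2 fold change -0.46, adjusted p = 0.0210 by edgeR), mt-nd5 (-0.42, 0.0474) and mt-nd6 (-0.42, 0.00661), and library sizes without TMM scaling called mt-nd6 (-0.44, 0.0481). The share of all genes that these fits called is not given here, so their counts have no baseline.

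Against Tu, nkd1-/- embryos showed no common direction. Of the 7 genes 4 were below 0 and 3 above it, from -0.45 ± 0.23 for mt-nd2 to 0.27 ± 0.26 for mt-nd4l on the log2 scale, with a median of -0.07, beside 0.00 over all genes. Neither edgeR nor DESeq2 called any (0 of 7 each, and 0 of 7 at an unadjusted p under 0.05), where 29.3% of all genes were called. Without nkd1-/- replicate 2, the library in which all 7 were high, 2 were called lower: mt-nd1 (log2 fold change -0.61, adjusted p = 0.0301 by edgeR) and mt-nd2 (-0.82, adjusted p = 0.00890), and all 7 were then below 0. That fit called 4899 of all genes, beside 6324 with all samples. The library was picked on the values of these 7 genes, so these calls do not count as separate support. Without nkd1-/- replicate 1 or replicate 3 instead, 0 were called.

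**Figure D2:**
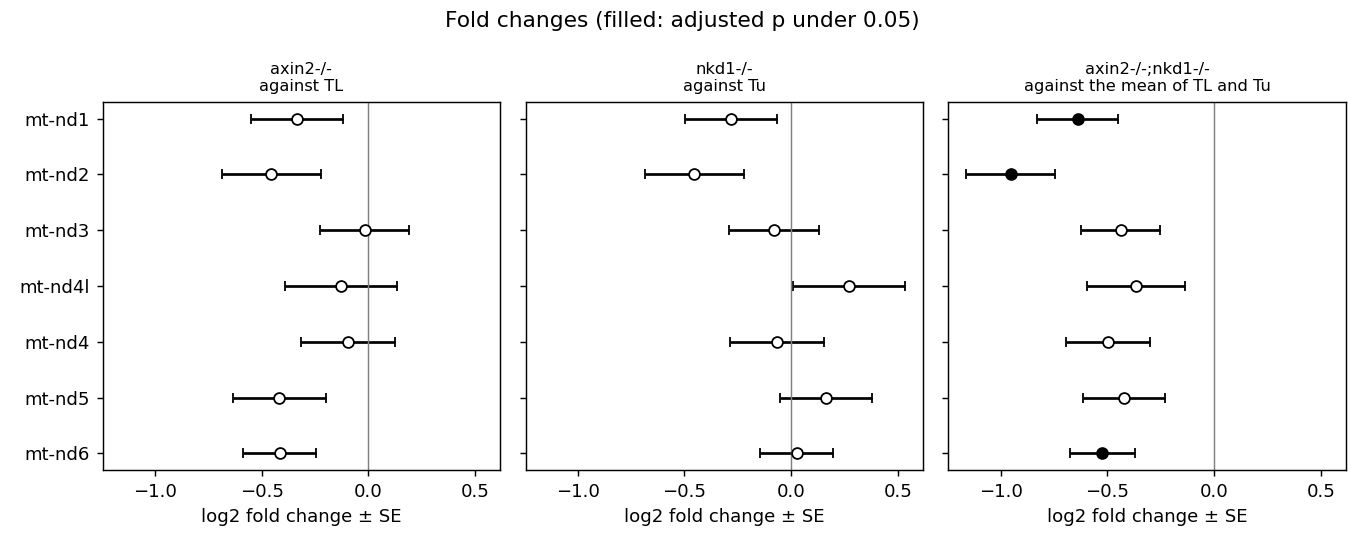
Log2 fold changes (horizontal axes, points with SE bars) of the 7 genes, one row a gene, in axin2-/- against TL, nkd1-/- against Tu and the double mutant set against its strain mean, with filled points where the adjusted p was under 0.05 by edgeR. The filled points are mt-nd1, mt-nd2 and mt-nd6 in the double mutant, and mt-nd2 is the lowest point in each panel.

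Set directly against the single mutants, the double mutant was again on the lower side for all 7 genes. Against nkd1-/- embryos the log2 fold changes ran from -0.58 ± 0.23 for mt-nd2 to -0.22 ± 0.21 for mt-nd3, with a median of -0.38. By edgeR 0 of 7 were called, with 3 at an unadjusted p under 0.05, where 11.5% of all genes were called. DESeq2 called mt-nd6 (-0.54, adjusted p = 0.0375), which edgeR's quasi-likelihood test placed at -0.52 ± 0.17 (adjusted p = 0.0558). In this comparison DESeq2 called 3304 of all genes. The edgeR call for mt-nd6 was also made without nkd1-/- replicate 1 (adjusted p = 0.0408) or without double mutant replicate 1 (adjusted p = 0.0270). Without nkd1-/- replicate 2 the fold changes ran from -0.33 for mt-nd6 to 0.12 for mt-nd3, and none was called. Without double mutant replicate 2 they ran from -0.37 for mt-nd2 to -0.07 for mt-nd3, and again none was called. The lower side was not particular to complex I. With all samples, mt-co1 (-0.48, adjusted p = 0.0180 by edgeR), mt-co2 (-0.51, 0.0214), mt-co3 (-0.55, 0.0281) and mt-cyb (-0.67, 0.00865) were called lower. The other mitochondrial mRNAs, mt-atp6 (-0.29) and mt-atp8 (-0.18), were not called.

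Against axin2-/- embryos, mt-nd3 was the called member, at 0.681 of the axin2-/- level (log2 fold change -0.55 ± 0.21, adjusted p = 0.0458 by edgeR's quasi-likelihood test). The remaining log2 fold changes ran from -0.49 ± 0.26 for mt-nd4l to -0.12 ± 0.22 for mt-nd5. The 1 of 7 stood in a comparison that called 38.6% of all genes and 19.5% as lower. The call was lost without axin2-/- replicate 1 (adjusted p = 0.162 by edgeR), without axin2-/- replicate 2 (0.0677), without double mutant replicate 2 (0.181) and without double mutant replicate 3 (0.0917), and without double mutant replicate 1 a second gene, mt-nd4, was called (0.0344). Without double mutant replicate 2, mt-nd5 and mt-nd6 were on the higher side, at 0.10 and 0.06 on the log2 scale, neither called. Among the other mitochondrial mRNAs, mt-co1 (-0.40, adjusted p = 0.0176 by edgeR) and mt-cyb (-0.57, 0.00793) were called lower than in axin2-/- embryos with all samples. Not called were mt-co2 (-0.29), mt-co3 (-0.32), mt-atp8 (-0.07) and mt-atp6 (0.06). Both comparisons use the same double mutant samples.

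The departure from additivity sets the effect in double mutants against both single mutant effects added together. No member was called by edgeR or by DESeq2 (0 of 7 each, and 0 of 7 at an unadjusted p under 0.05), where edgeR called 19.7% of all genes. Estimates ran from -0.51 ± 0.35 for mt-nd4l to -0.02 ± 0.28 for mt-nd1 on the log2 scale, with standard errors as large as most of the estimates. The direction turned on single libraries. Without nkd1-/- replicate 2 the estimates ran from -0.14 for mt-nd4l to 0.32 for mt-nd2, with mt-nd1 (0.30), mt-nd5 (0.12) and mt-nd6 (0.06) also above 0. Without double mutant replicate 2 they ran from -0.26 for mt-nd4l to 0.17 for mt-nd2, and none was called under either setting. Other mitochondrial mRNAs were called below additivity with all samples. These were mt-co1 (-1.21, adjusted p = 8.31e-05 by edgeR), mt-co2 (-0.86, 0.00321), mt-co3 (-0.71, 0.0216) and mt-cyb (-1.08, 0.00140). The estimates for mt-atp6 (0.58) and mt-atp8 (0.13) were above 0 and not called. Between the strains, TL against Tu gave log2 fold changes from -0.17 ± 0.23 for mt-nd2 to 0.50 ± 0.26 for mt-nd4l. Again 0 of 7 were called by edgeR and by DESeq2 and 0 at an unadjusted p under 0.05, where edgeR called 31.1% of all genes. A fit on the TL and Tu samples alone called mt-nd4l (0.51, adjusted p = 0.0478 by edgeR).

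Dividing each gene by the sum of the 7 removes the library scale and shows their balance, given as a description. The share of mt-nd2 was 19.1% ± 0.0726 in axin2-/- embryos, 19.98% ± 1.02 in nkd1-/- embryos and 18.2% ± 0.228 in the double mutant, against 21.4% ± 0.465 in TL and 25.4% ± 1.63 in Tu (SD, n = 3 each). In each mutant group the samples lay below all samples of its own strain, the double mutant lay below both strains and both single mutants, and TL lay below Tu. It was the only one of the 7 whose share in the double mutant did not overlap the strains.

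Some other shares also separated a single mutant from its strain, while that of mt-nd6 overlapped in both. In axin2-/- embryos mt-nd4 made up 30.5% ± 0.489 and mt-nd5 19.0% ± 0.377 of the sum, against 26.7% ± 1.79 and 20.7% ± 1.17 in TL, and neither overlapped. The share of mt-nd3 in axin2-/- embryos, 4.15% ± 0.171, was also above that in TL, 3.46% ± 0.355, in every sample. In nkd1-/- embryos mt-nd5 held 22.8% ± 0.956 and mt-nd4l 3.85% ± 0.192, against 18.8% ± 2.65 and 2.99% ± 0.276 in Tu, and mt-nd1 held 14.5% ± 0.410, against 16.3% ± 0.567 in Tu, again without overlap (SD, n = 3 each). The genes that stood out beside mt-nd2 were thus different in the axin2-/- and nkd1-/- comparisons, except mt-nd5, which was below TL in axin2-/- embryos and above Tu in nkd1-/- embryos. Shares of the same sum are tied, so a lower share of mt-nd2 by itself raises those of the others. In CPM, mt-nd3, mt-nd4 and mt-nd5 in axin2-/- embryos overlapped TL, and mt-nd1, mt-nd4l and mt-nd5 in nkd1-/- embryos overlapped Tu. The separations in share have no baseline over other genes.

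**Figure D3:**
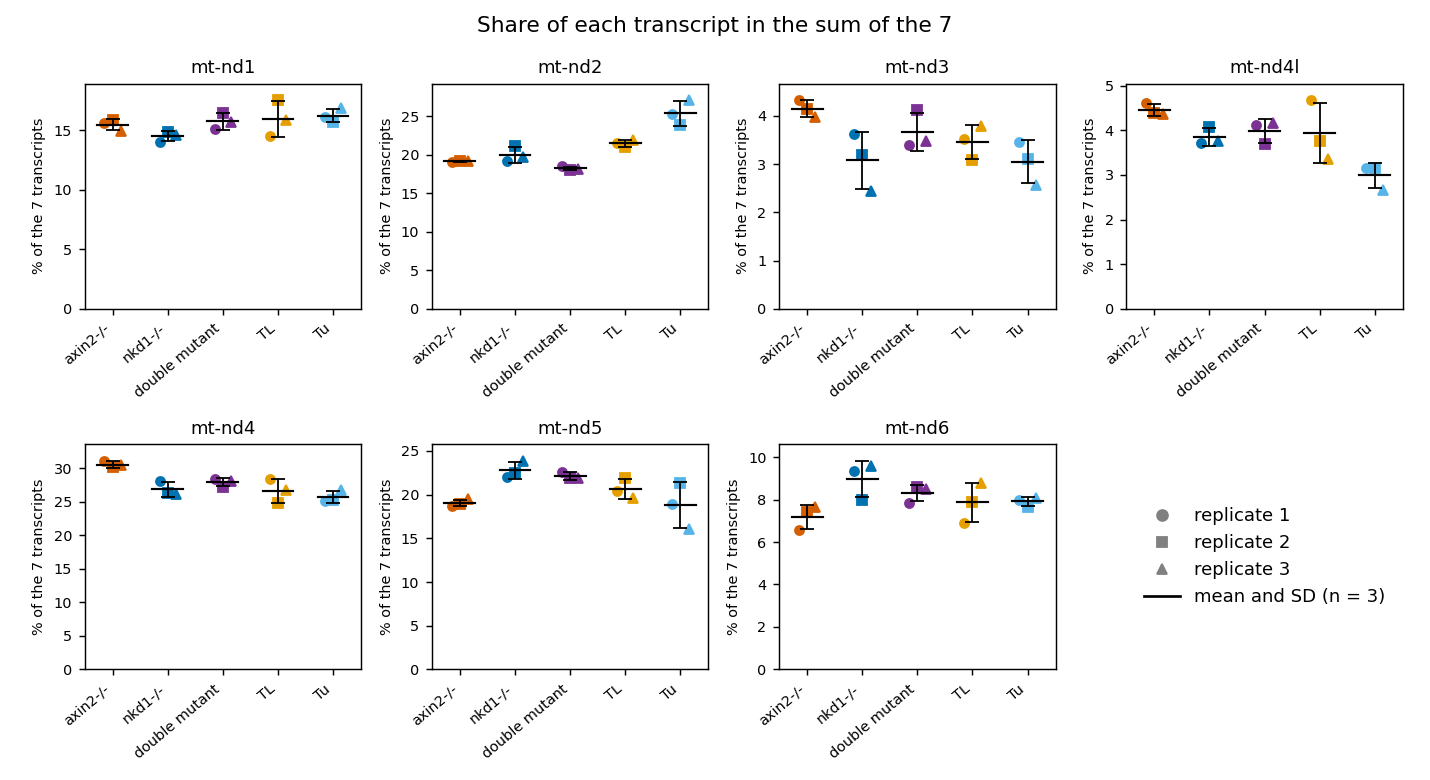
Share of each gene in the summed counts of the 7, in percent (vertical axes, linear from 0, one panel a gene), by group, with a point for each sample and bars for the mean and SD of 3 samples. The mt-nd2 panel has the mutant samples between 18.01% and 21.1%, with each mutant group below its strain, and Tu between 23.8% and 27.0%.

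The mitochondrial genome also encodes 6 mRNAs for complexes III, IV and V, some of which were called higher. The message for the core subunit of cytochrome c oxidase, mt-co1, was higher in all 3 mutant groups, at 10360.0 ± 2121 CPM in axin2-/- embryos, 10793 ± 1083 CPM in nkd1-/- embryos and 7661 ± 802 CPM in the double mutant, against 6759 ± 781 CPM in TL and 5760.0 ± 429 CPM in Tu (SD, n = 3 each). Each single mutant lay above its own strain in every sample, while the double mutant samples overlapped the strain samples. The log2 fold changes of mt-co1 by edgeR were 0.64 ± 0.12 (adjusted p = 0.00142) in axin2-/- embryos, 0.90 ± 0.13 (5.24e-05) in nkd1-/- embryos and 0.33 ± 0.11 (0.0214) in the double mutant. The proton channel subunit gene mt-atp6 was lower in axin2-/- embryos, at -0.88 ± 0.23 (adjusted p = 0.0115 by edgeR), and in the double mutant, at -0.81 ± 0.21 (0.00513). In nkd1-/- embryos mt-co2, mt-co3 and mt-cyb, which encodes cytochrome b of complex III, also rose, by 0.65, 0.53 and 0.68 on the log2 scale (adjusted p-values by edgeR 0.00195, 0.0173 and 0.00330).

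The complex I genes made up a smaller share of mitochondrial messages in the mutants, where mt-co1, part of the same total, was higher. Lower values were not particular to complex I. Mean mt-atp6 was 1351, 1687 and 1380 CPM in axin2-/-, nkd1-/- and double mutant embryos, against 2523 CPM in TL and 2428 CPM in Tu. Of the counts on the 13 mRNAs the complex I genes took 14.96%, 16.6% and 15.7% in axin2-/- embryos and 12.4%, 19.4% and 13.5% in nkd1-/- embryos. In the double mutant they took 18.03%, 13.5% and 15.4%. They took 22.2%, 23.6% and 19.3% in TL embryos and 22.4%, 23.5% and 23.1% in Tu embryos. Each mutant group lay below its own strain, and over all groups the one crossing was between nkd1-/- replicate 2, the highest mutant sample, and TL replicate 3, the lowest strain sample. The sum of the 7 was 3593 ± 428 CPM in axin2-/- embryos, 3738 ± 995 CPM in nkd1-/- embryos and 2771 ± 811 CPM in the double mutant, against 4481 ± 700.3 CPM in TL and 4099 ± 429 CPM in Tu (SD, n = 3 each). The other 6 mRNAs summed to 19320.0 ± 3371, 20966 ± 1174 and 14680.4 ± 2241 CPM in axin2-/-, nkd1-/- and double mutant embryos, against 16135 ± 1667 CPM in TL and 13692 ± 1149 CPM in Tu, so that this sum was above the strain's own mean in the single mutants and between the strain means in the double mutant.

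**Figure D4:**
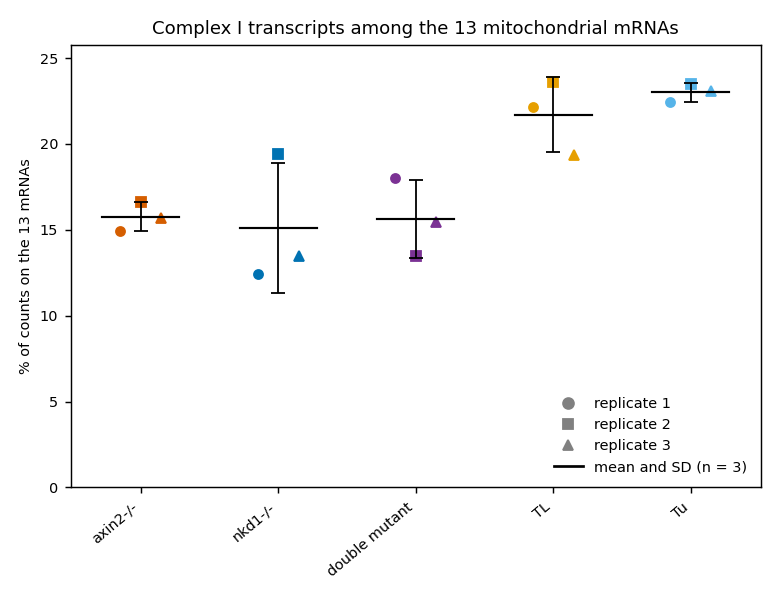
Percent of the counts on the 13 mitochondrial mRNAs that fell on the 7 complex I genes (vertical axis, linear from 0), by group, with a point for each sample shaped by replicate number and bars for the mean and SD of 3 samples. The 9 mutant samples lie between 12.4% and 19.4% and the 6 strain samples between 19.3% and 23.6%.

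Messages for the nuclear-encoded part of the complex were called in both directions. Of the core subunits, which carry the iron-sulphur clusters and flavin, 6 were tested. Of these, 0 were called in axin2-/- embryos and 1 rose in nkd1-/- embryos (ndufs1). The level of ndufs1 was near the floor, at 0.673 ± 0.260 CPM in nkd1-/- embryos, against 0.199 ± 0.0568 CPM in Tu. In the double mutant ndufv1 fell, whose product binds NADH and the flavin, at 78.7 ± 8.84 CPM in the double mutant, against 104 ± 20.8 CPM over the strain samples (log2 fold change -0.35 ± 0.11, adjusted p = 0.0160 by edgeR). The median log2 fold changes of this list were -0.04, 0.12 and 0.27 in axin2-/-, nkd1-/- and double mutant embryos.

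Over all genes, 21.2% were called in axin2-/- embryos, 29.3% in nkd1-/- embryos and 37.4% in the double mutant. Accessory subunits, which surround the core, numbered 28 tested, and of them 1 rose (ndufb1) and 1 fell (ndufb3) in axin2-/- embryos. In nkd1-/- embryos 1 rose (ndufa10) and 3 fell (ndufv3, ndufab1b and ndufb3), and in the double mutant 2 rose (ndufb8 and ndufb9) and 4 fell (ndufb10, ndufa9b, ndufb6 and ndufc2), so that 2, 4 and 6 of 28 were called, a smaller part than of all genes each time. For ndufa9b the strains averaged were unlike: double mutant embryos had 5.60 ± 1.43 CPM, against 12.8 ± 0.788 CPM in TL and 5.64 ± 0.230 CPM in Tu (SD, n = 3 each). The flavoprotein subunit gene ndufv3 fell to 13.4 ± 1.40 CPM in nkd1-/- embryos, against 27.6 ± 1.30 CPM in Tu (-1.04 ± 0.13, adjusted p = 1.53e-05 by edgeR). In the double mutant ndufb10 fell (-0.89 ± 0.18, adjusted p = 0.000959 by edgeR), while ndufb8 and ndufb9, of the same membrane arm, rose by 0.60 and 0.50 on the log2 scale (0.00375 and 0.00364). The medians of this list were 0.02, -0.04 and 0.02, near those over all genes.

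Assembly factors, 15 in number, build the complex without being part of it. Among them 1 rose (tmem126a) and 1 fell (ndufaf1) in axin2-/- embryos, and 1 rose (foxred1) and 2 fell (ecsit and tmem126a) in nkd1-/- embryos. In the double mutant 2 rose (ndufaf1 and ndufaf2) and 1 fell (ecsit). The assembly factor ecsit, known in mammals also from innate immune signalling, fell to 10.6 ± 0.482 CPM in the double mutant, against 20.8 ± 2.19 CPM over the strain samples (-0.92 ± 0.12, adjusted p = 1.27e-05 by edgeR). It also fell in nkd1-/- embryos (-0.61 ± 0.13, adjusted p = 0.00191 by edgeR), to 14.9 ± 2.08 CPM, against 22.7 ± 0.752 CPM in Tu. The medians of the list were -0.08, 0.22 and 0.02.

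Of 17 tested genes that copy, transcribe or process mitochondrial DNA and RNA, 2 rose (mterf3 and rexo2) and 1 fell (tfb1m) in axin2-/- embryos. In nkd1-/- embryos 0 rose and 2 fell (twnk and slirp), and in the double mutant 2 rose (mterf3 and slirp) and 1 fell (rexo2). Both rises are relative to the average of unlike strains. The double mutant had 13.6 ± 1.27 CPM of mterf3, against 4.51 ± 0.484 CPM in TL and 15.4 ± 3.04 CPM in Tu, and 12.4 ± 1.06 CPM of slirp, against 6.34 ± 0.315 CPM in TL and 11.04 ± 2.25 CPM in Tu (SD, n = 3 each). The methyltransferase tfb1m, which modifies mitochondrial ribosomal RNA, fell in axin2-/- embryos to 0.662 ± 0.455 CPM, against 2.99 ± 1.70 CPM in TL (log2 fold change -2.12 ± 0.45, adjusted p = 0.00272 by edgeR). The oligoribonuclease rexo2 rose in axin2-/- embryos (0.44 ± 0.13, adjusted p = 0.0198 by edgeR) and fell in the double mutant (-0.44 ± 0.11, 0.00473). In nkd1-/- embryos the mitochondrial helicase twnk and the RNA-binding slirp fell by 0.82 and 0.66 on the log2 scale (adjusted p-values by edgeR 0.0103 and 0.0241). The medians of this list were -0.08, -0.10 and 0.02, and no mitochondrial ribosomal RNA was matched to an ID. Of the genes named from these lists, ndufs1, ndufa9b and mt-co3, and in the double mutant ndufaf1, mterf3 and slirp, were chosen after their values were seen, to complete the counts.

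Over the 15 samples, the genes whose log2 CPM was most like the mean pattern of the 7, among 14930 with a mean of at least 1 CPM, were mt-atp8 (Pearson's r = 0.85), mt-atp6 (0.82), dlc (0.81), her1 (0.81) and piwil1 (0.78). The first pair encodes ATP synthase subunits on the mitochondrial genome, dlc is a Notch ligand, her1 a transcriptional repressor of the segmentation clock and piwil1 a germ cell protein that binds piRNAs. The remaining mitochondrial messages were less alike, with r of 0.61 for mt-co3, 0.48 for mt-cyb, 0.31 for mt-co2 and -0.06 for mt-co1. These values describe samples that share group and library, and the ranking does not test a link.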

How the data were processed

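The authors deposited 1 table of whole-number counts per Ensembl gene ID for the 15 samples, not normalized. The submitters' processing notes name GRCz11 and edgeR 3.30.3. The aligner, the counting tool, the use of strand and whether polyadenylated RNA was selected are not given in the sources used here. Symbols came from a reference table of zebrafish gene names, which matched 29201 of the IDs.

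Counts were filtered with filterByExpr (minimum count 10, minimum total 15), scaled by TMM and fitted with edgeR 4.0.16 in R 4.3.3 (glmQLFit and glmQLFTest) over all 15 samples, with group as the only factor and Benjamini-Hochberg adjustment over 21614 genes. Standard errors were derived from the F statistic. The code was tested on simulated data. CPM used the total counts. Correlations used log2 CPM with a prior count of 2. No replicate pair agreed within sampling noise, so each library was its own sample.

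The members and gene lists were chosen with earlier results of these data known. From each list, genes called with no overlap between the groups and a mean of at least 1 CPM could be named, up to 3 in each direction. For the nuclear core list, the full count in the double mutant is not reported here. The alternatives were DESeq2 1.42.0, its size factors, total counts without TMM, no filter, library sizes without the members or the mitochondrial mRNAs (the second chosen after seeing the data), only the groups compared, each strain alone, a fold threshold, the replicate number as a block and each sample left out.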

Additional observations from a re-analysis of the deposited data

How the results depend on the processing

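Counts of called members by edgeR's quasi-likelihood test depended on the fit in some comparisons. In axin2-/- against TL, 0 called members became 1 with total counts in place of TMM and 3 with only the groups compared. For double mutants and the strain mean, 3 became 5 with total counts, 5 without the filter, 5 with only the groups compared, 0 with a log2 fold change of 1 or more required, and 1 to 6 on leaving out each sample. Against nkd1-/- embryos, 0 became 1 with total counts, without the filter or with DESeq2, and 0 to 1 on leaving out samples. Against axin2-/- embryos, 1 became 0 at the fold threshold and 0 to 2 on leaving out samples. In TL against Tu, 0 became 1 with only the groups compared, and in nkd1-/- against Tu it was 0 to 2 on leaving out samples. The number of all genes called also moved, as from 8089 to 6111 for double mutants and the strain mean without double mutant replicate 2. For fits on only the groups compared, the number of all genes called is not given here. The cause of these changes was not tested. Same-numbered samples did not deviate together (mean r 0.021 over 30 pairs, -0.068 to 0.135), so the numbers were not used to pair them. With the replicate block the counts were 0, 0, 3, 0, 1, 0 and 0, the same as without it.

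Signs changed on leaving out a sample, only for values not called in the main fit. Not all of these were near 0, as with mt-nd4l in nkd1-/- embryos and Tu, at 0.27 in the main fit. The log2 ranges were -0.16 to 0.077 (mt-nd3), -0.32 to 0.10 (mt-nd4l) and -0.22 to 0.035 (mt-nd4) for axin2-/- embryos and TL. For nkd1-/- embryos and Tu they were -0.42 to 0.16 (mt-nd3), -0.093 to 0.43 (mt-nd4l), -0.35 to 0.073 (mt-nd4), -0.13 to 0.32 (mt-nd5) and -0.17 to 0.15 (mt-nd6). In the double mutant they were -0.46 to 0.12 (mt-nd3) against nkd1-/-, and -0.34 to 0.10 (mt-nd5) and -0.29 to 0.060 (mt-nd6) against axin2-/-. In TL against Tu they were -0.057 to 0.18 (mt-nd1), -0.0013 to 0.26 (mt-nd4) and -0.045 to 0.17 (mt-nd6). For the departure from additivity they were -0.19 to 0.30 (mt-nd1), -0.26 to 0.32 (mt-nd2), -0.39 to 0.12 (mt-nd5) and -0.29 to 0.062 (mt-nd6). Of the 5 genes with the most similar pattern, Spearman's correlation kept 4 and a prior count of 0.5 kept 5.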
